A study of Mus musculus with 24 samples.

Results

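All 24 arrays of the series were compared by genetic background, B6g7 (C57Bl/6.H2g7) against NOD, across 5 leukocyte populations: pancreatic infiltrate, spleen, NK cells, pancreatic T cells and lymph node T cells. The labels place 11 arrays on B6g7 and 13 on NOD. The difference described is B6g7 minus NOD, taken within each population and averaged over the 5 with equal weight. It is a difference of background alone only so far as cells, sex, transgene, age and handling match within a population.

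NOD is an inbred mouse strain that develops autoimmune diabetes, and C57Bl/6 is a resistant strain. Both backgrounds here carry the g7 haplotype of the major histocompatibility complex (H2), which presents the islet antigen. BDC2.5 is a T cell receptor transgene that directs CD4 T cells to that antigen. Inbred strains differ in the sequence and copy number of many genes, so a gene can be expressed at a different level in every tissue that uses it. Other strain differences appear only in 1 cell type, because the gene or the cell is restricted to it.

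Infiltrates were CD45+ cells that excluded Hoechst dye, from BDC2.5 mice, in 3 B6g7 arrays (25, 28 and 24 days of age) and 3 NOD arrays (25 days). Pancreatic T cells were CD4+ cells high for the BDC2.5 clonotype, in 2 B6g7 arrays (25 and 22 days) and 3 NOD arrays (24, 24 and 25 days). Lymph node T cells were sorted the same way, in 2 B6g7 arrays (25 and 22 days) and 3 NOD arrays (24, 22 and 25 days). NK cells were AsialoGM1+ CD45+ spleen cells, in 2 arrays a background. The B6g7 NK cells had no transgene and came from mice of 6 and 3 weeks, and NOD NK array 2 alone is labelled with BDC2.5. Splenic leukocytes had 2 arrays a background and 1 round of RNA amplification, where the other populations had 2. Whether arrays of 1 group were made from different mice is not labelled, and the p-values cover the spread among these arrays, which may be technical.

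The 24 arrays had median intensities of 35.1 to 39.1. Markers followed the populations only in part. The NK receptor gene Ncr1 had its highest levels in the NK arrays (5.12 to 6.08 on the log2 scale, against at most 4.90 elsewhere), and the B cell gene Cd79a in spleen (9.82 to 10.82, against at most 7.11). Markers of T cells were not low in the NK arrays, where Cd3e lay between 6.63 and 7.62. Myeloid genes were not low there either. The macrophage gene Csf1r lay between 8.12 and 9.73, and the granulocyte gene S100a8 between 5.03 and 12.58. Cd4 lay between 6.92 and 7.44 in pancreatic and between 6.82 and 7.80 in lymph node T cells, and between 7.08 and 7.64 in spleen. The liver transcripts Alb and Fabp1 were present in 6 arrays: B6g7 infiltrates 1 and 2, array 1 of both T cell sites on B6g7, and array 1 of both sites on NOD. A list of 24 pancreas and liver genes averaged 0.333 log2 units higher in B6g7, with 0.482 in infiltrates, 0.785 in lymph node T cells and -0.014 in NK cells. None of the 24 passed the test described next. The part of this material in the results was not tested gene by gene, and counts and named genes without those 6 arrays are given beside the results.

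Of 12422 probe sets (sets of short probes that measure 1 transcript), 145 differed between backgrounds in the average at an adjusted p under 0.05, which is 1.17% of those tested. They comprised 98 higher in B6g7 (0.789%) and 47 lower (0.378%). At an unadjusted p under 0.05 there were 799. The called differences ranged from 2.84-fold lower (Hars) to 5.66-fold higher (Cd8b1), with a median size of 0.710 log2 units against 0.067 over all probe sets. At least 2-fold differences were found for 35, of which 28 were higher and 7 lower in B6g7. The count was 92 (72 higher) without the 6 arrays with liver transcripts, and 71 of the 145 were among them. Without B6g7 spleen array 1 it was 94. All 145 kept their sign in both of these fits.

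The sign was shared across populations in most of the called probe sets. In 123 of the 145 (84.8%) B6g7 lay on the same side of NOD in all 5 populations, against 10.6% of all probe sets. Another 18 had the sign of the average in 4 populations and 4 had it in 3. The choice by the average favours shared signs, so each population was also read with a call made from the other 4. Of 72 probe sets called without the infiltrates, 68 (94.4%) had the same sign in the infiltrates, against 52.8% of all probe sets. The same share was 93.4% in spleen (85 of 91), 91.8% in NK cells (112 of 122), 88.0% in pancreatic T cells (146 of 166) and 90.7% in lymph node T cells (78 of 86). Over all probe sets it ran from 52.8% to 57.3%. The median difference in the population left out, taken in the direction of the call, was 0.513 to 0.752 log2 units. The T cell readings are not independent of the call: arrays of pancreas and lymph node with the same number mostly share an age and have adjacent or near serial codes, and may come from the same mice. With both T cell populations left out of the call, 107 probe sets were called, of which 89 (83.2%) had the same sign in pancreatic and 96 (89.7%) in lymph node T cells, against 55.5% and 51.6% of all. The spleen and NK readings may not be independent of the call either. NK cells were sorted from spleen, and the spleen and NK arrays with a serial code have near codes, so they may share mice or handling. A call without both populations was not made.

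**Figure D1:**
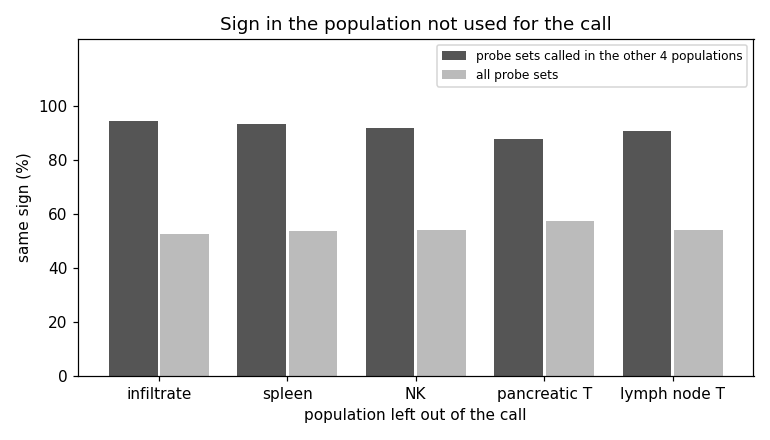
Share of probe sets (%, vertical axis) whose B6g7 minus NOD difference in the population named on the horizontal axis has the sign of the average over the other 4 populations. Dark bars show probe sets called at an adjusted p under 0.05 in the other 4, with 72, 91, 122, 166 and 86 probe sets from left to right, and lie between 88.0% and 94.4%; light bars show all probe sets and lie between 52.8% and 57.3%.

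The note of RMA (robust multi-array average) in the submitters' processing notes crossed this comparison in opposite ways. It is attached to all B6g7 and no NOD infiltrates, to all NOD and no B6g7 arrays of spleen and pancreatic T cells, to 3 of the 4 NK arrays, and to no lymph node array. Within infiltrates, spleen and pancreatic T cells, background and this note cannot be told apart. In the lymph node arrays, where neither background carries it, 78 of the 86 probe sets called elsewhere had the same sign. How arrays without the note were processed was not given. The 86 calls also used pancreatic T cell arrays that may come from the same mice. The part of processing in the results was not tested.

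Single populations gave fewer calls, each with 2 or 3 arrays a background. Passing were 34 probe sets in infiltrates (0.274%), 18 in pancreatic T cells (0.145%), 16 in lymph node T cells (0.129%), 9 in spleen (0.0725%) and 6 in NK cells (0.0483%). Of these, 26, 13, 15, 6 and 6 were also called in the average. The other 96 of the 145 averaged calls passed in no single population. These single counts rest on few arrays. In infiltrates they fell to between 16 and 18 without B6g7 array 1 or 2 or NOD array 1 or 2. Lymph node T cells gave 1 or 2 without either B6g7 array and 8 without NOD array 1. Pancreatic T cells gave 3 without B6g7 array 1, 40 without NOD array 2 and 119 without NOD array 3. NK cells gave 3 without B6g7 array 1 and 13 without NOD array 1, and spleen gave 14 without NOD array 1 of the pancreatic T cells.

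Backgrounds separated fully for a small number of probe sets. In 36 of the 145 the arrays of B6g7 and NOD did not overlap in any of the 5 populations, in the same direction, against 37 (0.298%) of all. Over all 24 arrays at once, whatever the population, 7 probe sets (0.0564% of those tested) did not overlap, and all 7 were among the called. They measured Pdk1, Gm11346, Hars, Glg1, Ptprv, AI506816 and a transcript with no gene name here (1.42 higher in B6g7, SE 0.10, adjusted p = 5.19e-07).

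Among genes higher in B6g7, Pdk1 (chromosome 2) separated the backgrounds in every array. It encodes a kinase that inhibits pyruvate dehydrogenase and so diverts pyruvate from mitochondrial oxidation. On the log2 scale its infiltrate values were 8.36, 8.17 and 7.61 in B6g7 and 5.51, 6.20 and 6.06 in NOD. In spleen they were 6.93 and 7.05 against 5.19 and 5.18, and in NK cells 8.14 and 7.23 against 5.94 and 5.83. Pancreatic T cells had 8.83 and 8.67 against 6.83, 4.90 and 5.98, and lymph node T cells 9.17 and 8.59 against 6.54, 6.24 and 5.95. Every B6g7 array lay above every NOD array, although the level itself varied by population. The average difference was 2.24 (SE 0.19, 4.73-fold, adjusted p = 3.95e-06), and single differences ran from 1.80 in NK cells to 2.85 in pancreatic T cells. Of 19 measured genes of glycolysis and pyruvate dehydrogenase kinases, Pdk1 alone was called, and the median difference of the list was -0.079.

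The promoters of 3 called genes whose difference had the same sign in all populations are printed here, and 2 with unequal differences follow further on. Med1 is among the 3 although its pancreatic T cell arrays overlapped between backgrounds (difference -0.499). They are RefSeq sequence of build GRCm38.p6, which is the C57Bl/6 reference, and the NOD sequence was not used here. Each runs over the 250 bases before the annotated start, 5′ to 3′, with Pdk1 at chr2:71872974-71873223, plus strand (the more upstream of 2 starts), Tmem14c at chr13:41016000-41016249, plus strand and Med1 at chr11:98192907-98193156, minus strand. Capitals mark matches on either strand to 3 motifs. The first is the TATA box, searched as TATAAA in the whole window. The second is the CCAAT box, searched by those same letters. The third is the GC box, searched as GGGCGG and thus also read as its complement on the other strand.
Pdk1: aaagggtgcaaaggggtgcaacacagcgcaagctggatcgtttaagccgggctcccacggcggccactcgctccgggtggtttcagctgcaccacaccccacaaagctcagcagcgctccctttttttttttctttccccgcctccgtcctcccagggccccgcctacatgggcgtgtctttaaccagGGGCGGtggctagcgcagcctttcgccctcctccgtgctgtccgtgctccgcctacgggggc
Tmem14c: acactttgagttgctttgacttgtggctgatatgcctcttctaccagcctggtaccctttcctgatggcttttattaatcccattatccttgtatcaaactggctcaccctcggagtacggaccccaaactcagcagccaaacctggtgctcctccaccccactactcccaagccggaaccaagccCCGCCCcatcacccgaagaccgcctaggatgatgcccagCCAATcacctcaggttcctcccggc
Med1: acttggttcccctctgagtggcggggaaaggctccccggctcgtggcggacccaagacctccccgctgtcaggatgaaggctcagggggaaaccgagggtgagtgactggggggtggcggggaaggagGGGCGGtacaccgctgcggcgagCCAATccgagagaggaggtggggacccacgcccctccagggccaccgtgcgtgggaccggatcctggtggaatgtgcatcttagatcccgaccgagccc
Each of the 3 holds 1 GC box, which 32.7% of the 32851 promoters in the table hold. Tmem14c and Med1 also hold 1 CCAAT box each, found in 33.8% of promoters. No TATA box (12.4% of promoters) was matched in them, and no matches overlapped. CG dinucleotides numbered 19 in Pdk1, 7 in Tmem14c and 18 in Med1, against a median of 6.

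Pdk1 and Hat1 lie with 4 measured genes between them. Hat1, a histone acetyltransferase gene, was also higher in B6g7, by 0.99 (SE 0.13, adjusted p = 3.48e-04). A second Hat1 probe set stood at -0.05 (adjusted p = 0.999).

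Gm11346, a predicted gene on chromosome 13, was 2.17 higher in B6g7 (SE 0.18, adjusted p = 3.95e-06). Its arrays lay between 5.44 and 8.03 in B6g7 (median 6.08) and between 3.65 and 4.92 in NOD (median 4.26). The backgrounds thus did not overlap across the 24 arrays, and the differences in both T cell populations, 3.30 and 2.63, were above those in the other populations (1.51 to 1.83). Tdp2, a DNA repair phosphodiesterase gene with 3 measured genes between it and Gm11346, was 0.90 higher (adjusted p = 0.00112).

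Tmem14c (chromosome 13), a mitochondrial membrane protein required for heme synthesis, was 2.07 higher in B6g7 (SE 0.22, 4.19-fold, adjusted p = 4.49e-05). In infiltrates the values were 8.24, 7.49 and 7.60 against 5.42, 5.09 and 5.17. Spleen had 7.70 and 7.24 against 5.70 and 5.56, and NK cells 6.35 and 7.77 against 4.76 and 5.19. Lymph node T cells had 7.35 and 7.37 against 5.30, 5.23 and 4.37. Pancreatic T cells had 7.44 and 7.11 against 7.03, 5.17 and 5.20. Within each population the backgrounds did not overlap, but NOD pancreatic T cell array 1, an array with liver transcripts, came close to the B6g7 arrays.

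**Figure D2:**
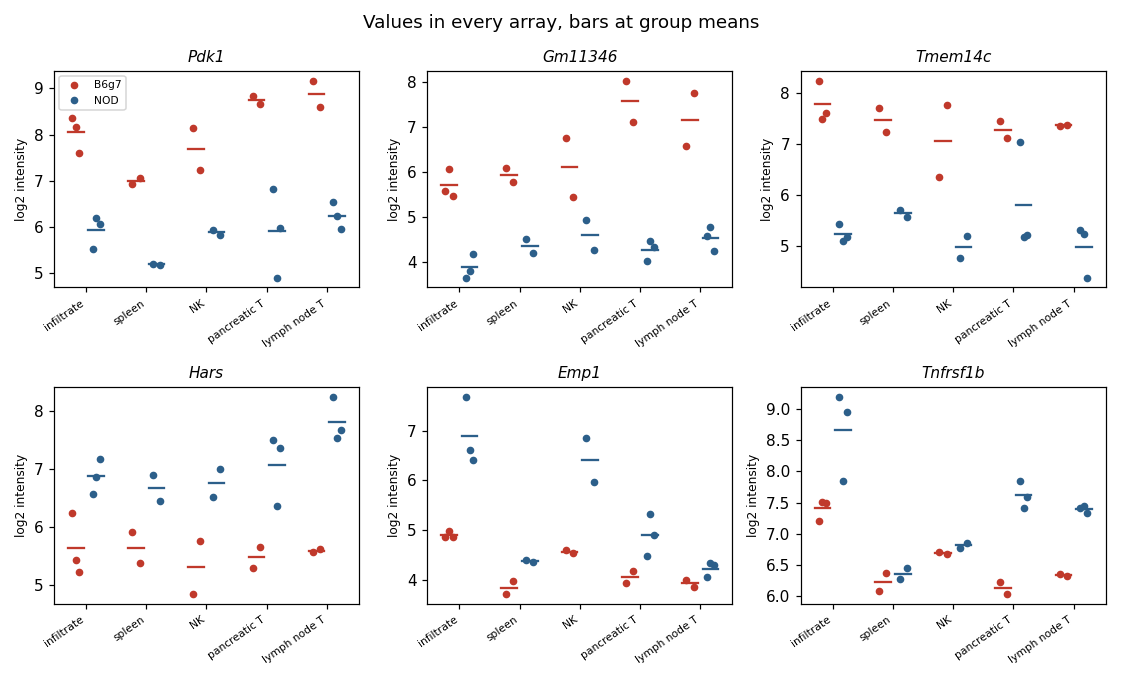
Log2 intensity (vertical axis) of 6 genes in every array, by population (horizontal axis), with B6g7 in red and NOD in blue, 1 point an array and a bar at each group mean. Pdk1, Gm11346 and Tmem14c are higher in B6g7 and Hars, Emp1 and Tnfrsf1b lower in every population, and the Hars arrays do not overlap between backgrounds.

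Cd8b1, which encodes the beta chain of the CD8 co-receptor of cytotoxic T cells, had the largest averaged difference, 5.66-fold with a log2 SE of 0.42 (adjusted p = 0.00346). It was not called in any single population. Spleen gave 8.42 and 7.65 against 5.96 and 5.61, and the infiltrates 6.69, 6.98 and 6.34 against 4.54, 4.63 and 4.49. In NK cells the B6g7 arrays themselves were apart, at 10.42 and 5.07, and the lower overlapped NOD (5.66 and 4.92). T cells sorted for CD4 also gave it, at 8.46 and 7.09 in pancreas and 6.86 and 8.10 in lymph node on B6g7, where no NOD T cell array was above 5.04. Of the B6g7 T cell arrays, 2 lay in or above the range of B6g7 spleen, which holds CD8 T cells, and 2 lay below it. Cd8a, the gene of the partner chain, stood at -0.100 in the average (adjusted p = 0.999). Its differences were 0.249 in infiltrates, -0.574 in spleen, -0.238 in NK cells, -0.022 in pancreatic and 0.087 in lymph node T cells. The 15 T cell markers as a list had a median difference of -0.045 with Cd8b1 alone called, and their mean level differed by 0.370 in pancreatic T cells and -0.191 in spleen. These means include Cd8b1 itself, at 2.98 in pancreatic T cells and 2.25 in spleen, which raises both. Means without Cd8b1 were not taken. Without the 6 arrays with liver transcripts the Cd8b1 difference was 2.14 (adjusted p = 0.201).

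Ccnd2, Gna13 and Spg21 were among the other large rises. Ccnd2, cyclin D2 of the G1 phase, was 1.43 higher (SE 0.26, adjusted p = 0.00695) without overlap in any population. The median was 9.10 over the B6g7 arrays and 7.25 over the NOD arrays, and the NOD arrays reached 9.37 in pancreatic T cells. Without the arrays with liver transcripts the difference was 1.27 (adjusted p = 0.0635). Gna13, the alpha subunit of G13, was 1.18 higher (SE 0.27, adjusted p = 0.0356), while a second Gna13 probe set stood at 0.295 (adjusted p = 0.999). On the first, pancreatic T cells overlapped, with NOD array 3 at 7.14 between B6g7 values of 7.21 and 6.65. Its call was lost in 23 of 40 alternative fits. Spg21, which encodes maspardin, a protein that binds the tail of CD4, was 1.51 higher (SE 0.24, adjusted p = 0.00225), with 1.20 to 1.81 in single populations.

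Mff, Atp6v1d, Slc1a5 and Myo6 were higher too. Mff, the mitochondrial fission factor, was 1.17 higher (SE 0.20, adjusted p = 0.00504), from 0.62 in spleen to 2.02 in infiltrates. Of 20 measured genes of mitochondrial dynamics and membranes, Tmem14c and Mff were called, both higher, where 1.27% of all measured genes were called in either direction. The median difference of the list was -0.011. Atp6v1d, a subunit of the proton pump of lysosomes, was 1.18 higher (SE 0.13, adjusted p = 7.34e-05) without overlap in any population. Slc1a5, a glutamine transporter, was 1.10 higher (SE 0.13, adjusted p = 1.22e-04), the only 1 called of 11 amino acid transporters. Its NOD arrays lay between 4.31 and 4.99 and its B6g7 arrays between 4.71 and 6.78. Myo6, an unconventional myosin that moves vesicles, was 1.24 higher (SE 0.13, adjusted p = 4.30e-05), with 1.98 in pancreatic T cells and 0.28 in spleen, where the arrays overlapped. The other probe sets of Myo6 stood at 0.19 and 0.32 and did not pass.

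Ly6e, a surface protein anchored by a lipid, was among the brightest probe sets of the arrays. Its B6g7 arrays ran from 11.64 to 12.98 and its NOD arrays from 9.38 to 11.96. The backgrounds did not overlap within any population, and the difference was 2.08 in lymph node T cells against 0.70 in NK cells. The average was 1.16 (SE 0.14, adjusted p = 1.88e-04). A second, dimmer Ly6e probe set stood at -0.17 (adjusted p = 0.999). Pla2g12a, a secreted phospholipase A2, was 1.37 higher (SE 0.17, adjusted p = 2.00e-04), and its second probe set at -0.29 did not pass. Epb41l4aos, a transcript from the strand opposite Epb41l4a, was 1.33 higher (SE 0.16, adjusted p = 1.37e-04), with 2.11 in NK cells. Akap9, a scaffold of protein kinase A, was 1.07 higher (SE 0.14, adjusted p = 4.01e-04), with 1.96 and 1.92 in the T cell populations and 0.19 in NK cells.

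**Figure D3:**
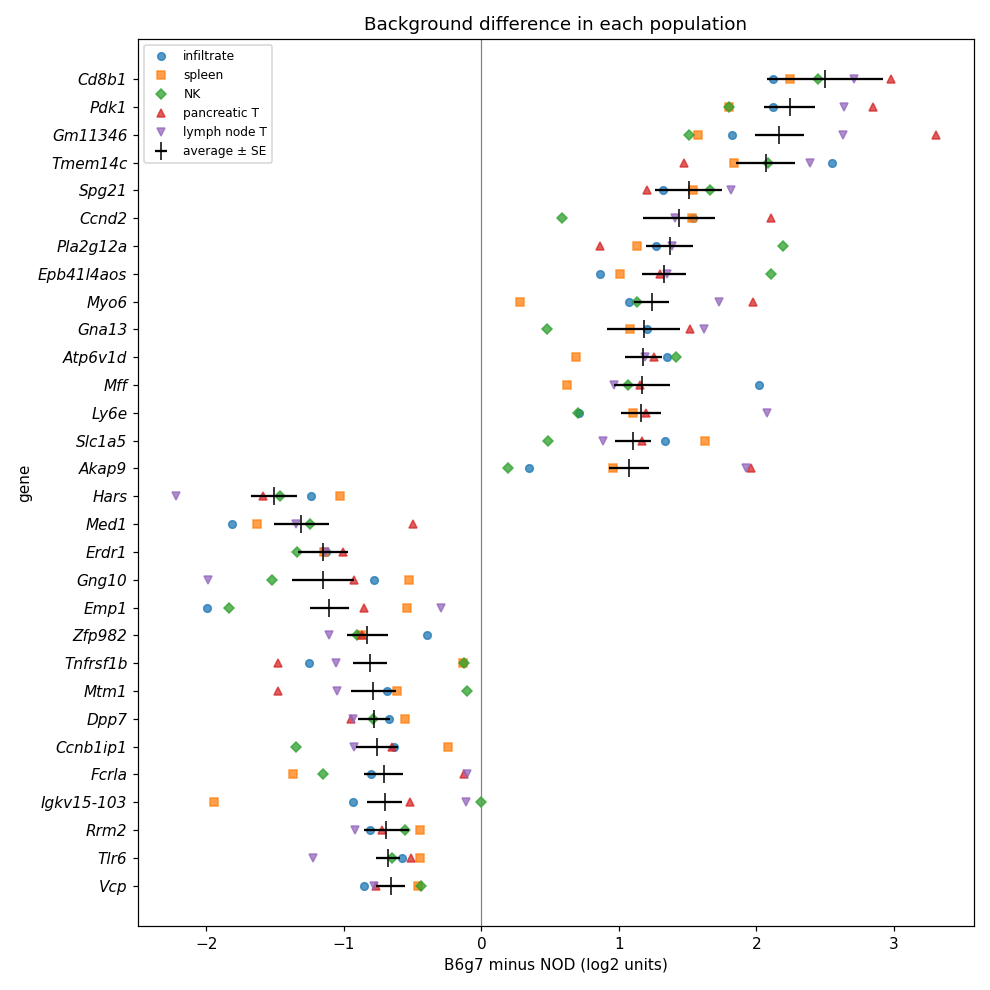
B6g7 minus NOD (horizontal axis, log2 units) for 30 genes (vertical axis), the 15 largest rises and 15 largest falls that were called with 1 sign in all populations. Coloured symbols give each population and black bars the average ± SE. Pdk1 spans 1.80 to 2.85, whereas Tnfrsf1b lies near 0 in spleen (-0.132) and NK cells (-0.125) and at -1.48 in pancreatic T cells.

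Among genes lower in B6g7, Hars, the histidyl-tRNA synthetase of the cytosol, fell the most, by 1.51 (SE 0.17, 2.84-fold, adjusted p = 7.34e-05). In lymph node T cells its values were 5.57 and 5.62 in B6g7 and 8.25, 7.54 and 7.67 in NOD. Over all populations the B6g7 arrays ran from 4.85 to 6.25 and the NOD arrays from 6.36 to 8.25, with no overlap. Med1, a subunit of the Mediator complex that links transcription factors to RNA polymerase, fell by 1.31 (SE 0.20, adjusted p = 0.00119). Infiltrates had 6.17, 6.69 and 6.41 against 8.25, 8.38 and 8.09, whereas the pancreatic T cell arrays overlapped, at 7.58 and 6.71 against 7.19, 6.92 and 8.83. The Med1 difference did not pass without the infiltrates.

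Erdr1, a gene of the X chromosome named as an erythroid differentiation regulator, fell by 1.15 (SE 0.18, adjusted p = 0.00209), by similar sizes in all populations (between -1.34 and -1.01). Its second probe set was at -0.02 (adjusted p = 0.999). Mtm1, a lipid phosphatase gene and the only other called gene of the X chromosome, fell by 0.787 (SE 0.17, adjusted p = 0.0215), with -1.48 in pancreatic T cells and -0.11 in NK cells. A second, dimmer Mtm1 probe set was at -0.129 (adjusted p = 0.999). The called Mtm1 probe set is numbered next to the Erdr1 probe sets, and whether it reads the same transcript as they do was not tested. None of 5 sex-linked transcripts was called, but their levels varied within and between groups. Eif2s3y, a Y-linked gene, lay between 6.83 and 6.96 in B6g7 pancreatic T cells and between 4.37 and 7.05 in NOD ones. Xist, the RNA of the inactive X, lay between 3.64 and 7.60 in infiltrates and T cells and between 3.40 and 3.83 in spleen and NK cells. The part of sex in the results was not tested.

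Other falls included Emp1 and Tnfrsf1b. Emp1, a membrane protein, fell by 1.11 (SE 0.14, adjusted p = 2.26e-04). Its infiltrate values were 4.86, 4.99 and 4.86 against 7.68, 6.61 and 6.41, and its NK values 4.60 and 4.54 against 6.86 and 5.96. In lymph node T cells the backgrounds were close, with a difference of -0.29, and still did not overlap. Tnfrsf1b, the second receptor for tumour necrosis factor, fell by 0.811 (SE 0.12, adjusted p = 0.00118). Pancreatic T cells had 6.23 and 6.04 against 7.85, 7.41 and 7.59, and lymph node T cells 6.36 and 6.32 against 7.41, 7.45 and 7.34. Spleen overlapped, at 6.08 and 6.38 against 6.27 and 6.45. Without the arrays with liver transcripts Tnfrsf1b was at -0.783 (adjusted p = 0.0740).

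Tlr6, which senses bacterial lipopeptides together with Tlr2, fell by 0.682 (SE 0.09, adjusted p = 2.26e-04) and passed in all 40 alternative fits. Gng10, a gamma subunit of G proteins, fell by 1.15 (SE 0.23, adjusted p = 0.0138), and Dpp7, a dipeptidyl peptidase, fell by 0.780 (SE 0.12, adjusted p = 0.00120). Vcp, an ATPase that extracts proteins for degradation, fell by 0.661 (SE 0.11, adjusted p = 0.00209), while another of its 4 probe sets, at a much lower intensity, was 0.433 higher (adjusted p = 0.0162). Zfp982, a zinc finger gene, fell by 0.831 (SE 0.15, adjusted p = 0.00620). Ccnb1ip1, a ubiquitin ligase gene of meiosis, fell by 0.759 (adjusted p = 0.0150). Rrm2, a subunit of the enzyme that makes deoxynucleotides, fell by 0.691 (adjusted p = 0.0424) and lost its call in 26 of 40 alternative fits.

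Of genes known from B cells, Fcrla and Igkv15-103 were among the falls. Fcrla, an Fc receptor-like protein of B cells, fell by 0.711 in the average (SE 0.14, adjusted p = 0.0138). Spleen had 6.18 and 5.80 against 7.51 and 7.21, while no T cell array was above 3.88. Igkv15-103, a variable segment of the kappa light chain, fell by 0.702 (SE 0.13, adjusted p = 0.00684), most in spleen (-1.95) and least in NK cells (-0.004). Its second probe set fell by 0.440 (adjusted p = 0.0414). Kappa segments resemble each other, so the segment measured is uncertain. The 20 B cell genes did not move together in the average, where 2 were called higher (Cd72 and Ly6d) and 12 stood above 0. In spleen 19 of the 20 stood above 0, and their mean level was 0.594 higher in B6g7. Above 0 were 6 of the 20 in infiltrates and 4 in NK cells. Without Cd72 and Ly6d, 17 of the other 18 stood above 0 in spleen (mean 0.243) and 4 of 18 in infiltrates (mean -0.112).

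Of the 30 genes named above by size, 15 passed in all 40 alternative fits, Akap9 passed in the 39 in which it was tested, and none changed sign. Without the arrays with liver transcripts, Cd8b1, Ccnd2, Gna13, Mff, Gng10, Zfp982, Tnfrsf1b, Mtm1, Ccnb1ip1, Fcrla, Igkv15-103, Rrm2 and Vcp did not pass. That fit had fewer arrays. The differences in it were 1.34 for Mff, -0.76 for Fcrla, -0.80 for Mtm1, -0.71 for Igkv15-103, -0.65 for Vcp, -0.78 for Tnfrsf1b and -0.735 for Ccnb1ip1, near those over all arrays. They were smaller for Cd8b1 (2.14), Ccnd2 (1.27), Gna13 (0.96), Gng10 (-0.93), Zfp982 (-0.73) and Rrm2 (-0.49). Low signal is a further limit. In spleen arrays the 24 pancreas and liver genes, most of which spleen should lack, had a median of 5.36 (range 3.01 to 7.69), and 65 of the 145 called probe sets had a lower background at or under that median. This holds for Cd8b1, Gm11346, Tmem14c, Slc1a5, Akap9, Emp1, Zfp982, Ccnb1ip1, Fcrla, Igkv15-103 and Rrm2. For Akap9 (4.414 in B6g7 and 3.339 in NOD) and Ccnb1ip1 (4.535 and 5.294) the means of both backgrounds lay under it. At such levels a fold may understate a change or reflect signal other than that of the gene, which was not tested.

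Probe sets of the same gene did not always move together. Among called genes 40 had several probe sets. Of their 53 other probe sets, 34 (64.2%) had the sign of the called one, against 55.9% over all genes with several, and 5 were called as well. Vcp and AI506816 were called in both directions, AI506816 at -1.49 (adjusted p = 9.99e-06) and 1.11 (adjusted p = 0.0274). Ctsc, a lysosomal protease gene, had probe sets at 1.66 (adjusted p = 1.88e-04), 0.69 (adjusted p = 7.34e-05) and -0.39 (adjusted p = 0.480), the last being the brightest. AI506816 and Ctsc were singled out after their values were seen. Probe sequences were not used here, so whether bases that differ between the strains lie under the probes was not tested.

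By gene rather than probe set, 105 of 8251 measured genes were called (1.27%), 68 higher (0.824%) and 37 lower (0.448%). Of 11 NK receptor genes of the lectin type, 4 were called, all higher in B6g7: Klrb1a, Klrd1, Klra7 and Klra3. They lie close together on chromosome 6, with 5 measured genes between Klrb1a and Klrd1, 4 between Klrd1 and Klra7 and none between Klra7 and Klra3. Klrd1, the CD94 chain that pairs with NKG2 receptors, was 0.71 higher (SE 0.16, adjusted p = 0.0277), with 1.55 in infiltrates and 0.16 in NK cells, the population with the highest level. Klra7 and Klra3, Ly49 receptors for class I molecules, were 0.52 (adjusted p = 0.0388) and 0.69 (adjusted p = 0.0274) higher. Klra3 was higher in infiltrates, spleen and NK cells (0.79 to 1.84) and at -0.42 and -0.12 in the T cell populations. Ly49 genes are near copies of each other, so their probe sets may read several. The list's median was 0.216, Klrk1 stood at 0.39 (adjusted p = 0.113) and Klrb1b at -0.11 (adjusted p = 0.999).

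The 17 other NK cell genes had no call and a median difference of 0.171. Their mean level was 0.499 higher in B6g7 infiltrates and 0.206 higher in B6g7 NK cells. In bulk samples more cells of a type and more RNA per cell cannot be told apart. Without the arrays with liver transcripts none of the 11 lectin receptor genes was called, and without B6g7 NK array 1, either B6g7 spleen array or several others 1 was.

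Counts of called list members stand beside 1.27% of all measured genes, and the lists were chosen with earlier results known. Of 13 receptors of the TNF receptor superfamily 2 were called, Tnfrsf1b and Tnfrsf18, both lower. Tnfrsf18 (GITR), a receptor of activated and regulatory T cells, fell by 0.583 (SE 0.14, adjusted p = 0.0404), with -1.23 in lymph node T cells and 0.04 in infiltrates. Only 2 of the 13 stood above 0, and the median was -0.119. Tnfrsf4 was at -0.48 (adjusted p = 0.161), Cd27 at -0.46 (adjusted p = 0.270) and Fas at -0.30 (adjusted p = 0.531). Of 17 integrins 2 were called, both lower. Itgb1 fell by 0.688 (SE 0.16, adjusted p = 0.0353) and its second probe set by 0.605 (adjusted p = 0.0215), with -1.37 and -1.23 in the T cell populations and 0.23 in infiltrates. Itgal, the alpha chain of LFA-1, fell by 0.292 (SE 0.07, adjusted p = 0.0353), between -0.23 and -0.36 in every population.

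Of 10 Ly6 family genes, Ly6e and Ly6d were called, both higher, where 1.27% of all measured genes were called in either direction. Ly6e and Ly6d lie with 1 measured gene between them on chromosome 15. Ly6d, found on B lineage cells, was 0.74 higher (SE 0.14, adjusted p = 0.00963), and reached 1.89 in spleen beside 1.47 in infiltrates. A second, dimmer Ly6d probe set was at -0.061 (adjusted p = 0.999). Of 29 candidate genes of mapped diabetes (Idd) loci, Tnfrsf1b alone was called. No gene was called among 20 type I interferon-induced genes, of which 17 stood above 0 in the average with a median of 0.149. The T cell populations differed in sign on this list. Of its genes, 19 of 20 stood above 0 in pancreatic T cells (median 0.794, up to 1.79 for Ifit1) and 16 of 20 below 0 in lymph node T cells (median -0.350, down to -1.03 for Ifit3). That difference was not tested for the list. No gene was called either among 9 interferon-gamma-induced GTPases, 32 chemokines and their receptors, 41 cytokines and their receptors, 25 glutathione enzymes, 35 ribosomal proteins, 22 apoptosis regulators or 5 SLAM receptors. Markers of macrophages (16), granulocytes (15), dendritic cells (9) and erythroid cells (9) had no call, with list medians between -0.061 and 0.013.

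Both backgrounds carry the g7 haplotype of the H2 region on chromosome 17, and none of 62 measured genes of that region was called. At the share of all genes, 1.27%, fewer than 1 of 62 would be called, so the count does not set the region apart. Their differences ran from -0.237 (H2-Oa and Lta) to 0.283 (Hspa1a), with a median of 0.001. None of the 62 was called in any of the 40 alternative fits in which it was tested.

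Called genes were spread over the genome. All 19 autosomes and X had at least 1, with 104 of 8237 placed genes called (1.26%). The share was highest on chromosomes 12 (2.32%, 6 of 259), 4 (2.21%, 11 of 497) and 6 (2.07%, 10 of 482), and lowest on 19 (0.348%, 1 of 287). Chromosome 17, which carries H2, had 2 of 436 (0.459%). Signs were uneven on some chromosomes. On chromosome 4, 8 of 11 were lower in B6g7, among them Vcp, Gng10, Tnfrsf1b, Tnfrsf18 and Zfp982. On chromosome 6, 8 of 10 were higher, among them Cd8b1, Ccnd2 and the 4 lectin receptors. These counts are small and were not tested.

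**Figure D4:**
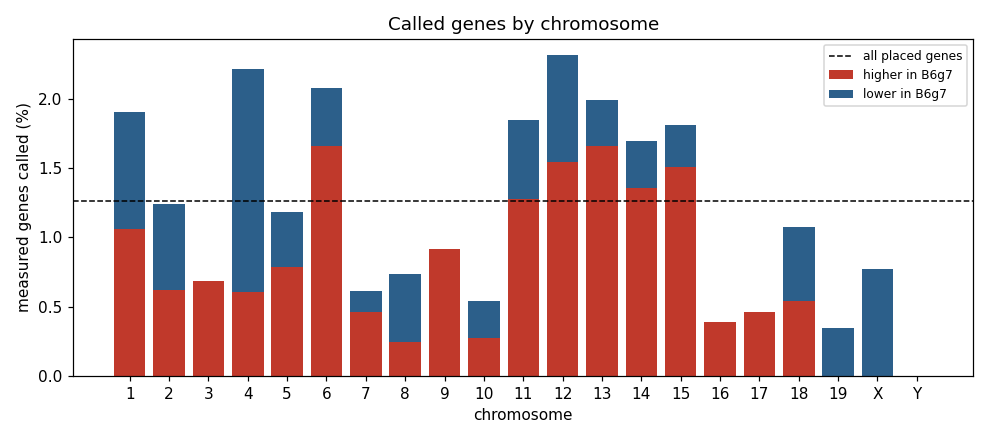
Share of measured genes called (%, vertical axis) on each chromosome (horizontal axis), split into genes higher (red) and lower (blue) in B6g7, with the dashed line at 1.26% for all placed genes. Chromosomes 12, 4 and 6 are the highest, and most of the called genes on chromosome 4 (8 of 11) were lower.

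Called genes seldom stood next to each other. Of called genes 1.92% had a called gene as the next measured neighbour, against 2.48% of all genes, and Klra7 with Klra3 was the only such pair. Allowing up to 2 uncalled genes between members gave 6 pairs and no run of 3. These pairs were named after the positions were seen. Klra7 with Klra3, Ly6d with Ly6e and Tnfrsf1b with Zfp982 shared a sign. Scg5 (-0.46) with Aqr (0.47), Lpin1 (0.44) with Pqlc3 (-0.58) and Gtpbp4 (0.89) with Ryr2 (-0.44) had opposite signs. Gene order is that of GRCm38.p6, since the files name no genome build.

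The background difference was unequal between populations, by a test of the 5 differences against each other, for 6 probe sets (0.0483%), and 217 passed unadjusted. Of the 145 averaged calls, 3 were among the 6 (Cd72, Klrb1a and Ifi202b) and 50 had an unadjusted p under 0.05. For the rest, equal differences were not shown. The count of 6 was 1 without the arrays with liver transcripts, 2 or 3 without any 1 of 12 arrays of infiltrates, spleen and T cells, and 11 without NOD NK array 1.

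Cd72, an inhibitory receptor of B cells, was the strongest (adjusted p = 0.00168). Spleen gave 9.18 and 8.78 in B6g7 and 3.21 and 3.56 in NOD. Infiltrates gave 7.28, 6.21 and 5.18 against 3.70, 3.21 and 3.63, and NK cells 4.50 and 4.31 against 3.40 and 3.30. Both T cell populations stayed between 3.03 and 4.08 on either background, the level at which NOD spleen also lay. Cd79a, another B cell gene, was at 10.51 in B6g7 and 10.32 in NOD spleen on average. Of the 18 B cell genes other than Cd72 and Ly6d, 17 stood above 0 in spleen, with a mean difference of 0.243. The part of B cell content in the Cd72 difference was not tested.

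Klrb1a, an NKR-P1 receptor of NK cells, was 3.27 higher in B6g7 NK cells (8.28 and 7.65 against 4.80 and 4.60, adjusted p = 7.77e-04 there). Other populations lay between 3.71 and 5.48 in both backgrounds, and the test of unequal differences gave an adjusted p of 0.0335. Its call as unequal was lost in 25 of 37 alternative fits. Trgv1, a variable segment of the gamma T cell receptor, was higher in B6g7 infiltrates, at 9.98, 9.73 and 9.69 against 7.52, 7.50 and 7.31. In the other populations it stood between -0.72 and -0.49 (adjusted p = 0.0122 for unequal differences).

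Ifi209 and Ifi202b belong to the same family of interferon-inducible genes on chromosome 1 and were unequal in different populations. Ifi209 was 1.94 higher in B6g7 spleen (6.66 and 6.57 against 4.77 and 4.58) and between -0.56 and 0.08 elsewhere (adjusted p = 0.0122 for unequal differences). Ifi202b, whose protein inhibits the DNA sensor Aim2, was lower in B6g7 infiltrates, at 2.78, 3.45 and 3.25 against 4.79, 4.81 and 4.96 (adjusted p = 0.0335 for unequal differences). Its call as unequal was lost in 25 of 37 alternative fits, as for Klrb1a. Its B6g7 arrays did not exceed 3.45 in any population, and only in lymph node T cells did the backgrounds overlap. No Ifi202b array of either background was above 4.96, which is under the median of 5.36 of the pancreas and liver genes in spleen. In the average Ifi202b fell by 0.620 (SE 0.08, adjusted p = 2.26e-04) and Ifi209 was at 0.27 (adjusted p = 0.336). The other 2 measured members, Ifi204 (-0.32) and Ifi207 (-0.13), did not pass. A probe set of the kappa segment Igkv14-111 was 1.36 higher in B6g7 spleen (6.70 and 6.77 against 5.14 and 5.61, adjusted p = 0.0335 for unequal differences); a brighter probe set of the same gene stands for it elsewhere.

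The promoters of Cd72 (chr4:43454627-43454876, minus strand) and Ifi202b (chr1:173982845-173983094, minus strand) are printed as the genes whose background difference depended most on the population or fell in the infiltrates, from the same build and window.
Cd72: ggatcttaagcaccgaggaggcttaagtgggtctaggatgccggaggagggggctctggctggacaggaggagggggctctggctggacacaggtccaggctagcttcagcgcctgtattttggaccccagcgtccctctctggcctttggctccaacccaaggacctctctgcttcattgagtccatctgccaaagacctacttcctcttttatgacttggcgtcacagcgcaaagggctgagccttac
Ifi202b: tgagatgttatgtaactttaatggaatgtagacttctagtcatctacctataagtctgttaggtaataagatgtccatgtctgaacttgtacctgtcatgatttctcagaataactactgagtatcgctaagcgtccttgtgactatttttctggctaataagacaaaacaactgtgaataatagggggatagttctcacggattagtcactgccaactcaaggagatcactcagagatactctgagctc
Neither held any of the 3 motifs, so no base is in capitals. They had 6 and 3 CG dinucleotides, against 19 in Pdk1, 18 in Med1 and 7 in Tmem14c.

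**Figure D5:**
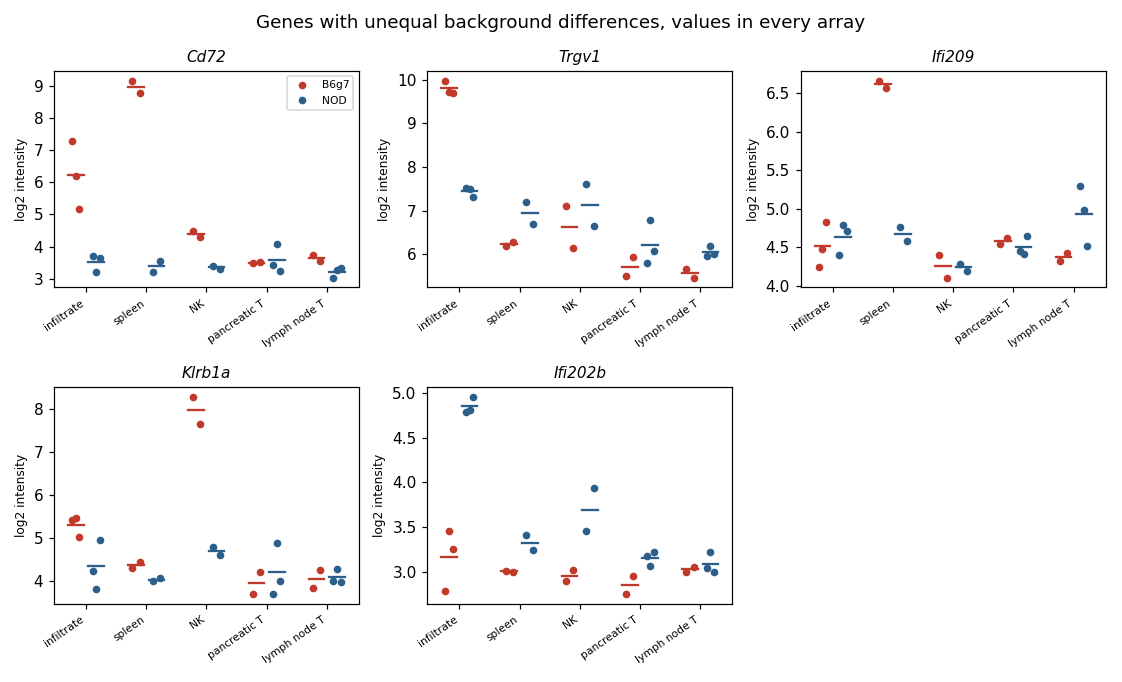
Log2 intensity (vertical axis) of the 5 genes whose background differences were unequal between populations, in every array by population (horizontal axis), with B6g7 in red, NOD in blue and bars at group means. Cd72 is high in B6g7 spleen (9.18 and 8.78) and infiltrates, Trgv1 in B6g7 infiltrates, Ifi209 in B6g7 spleen, Klrb1a in B6g7 NK cells, and Ifi202b in NOD infiltrates (4.79 to 4.96).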

How the data were processed

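The authors deposited 1 table of linear probe set intensity with a column per array; per the submitters' processing notes 11 of 24 arrays were made with RMA, and for the other 13 the method was not given in the sources used here. Log2 was taken without a pseudocount (lowest intensity 5.70). Of 12488 probe sets 66 controls were left out. Platform annotation updated through RefSeq (GRCm38.p6) gave 1 gene for 10833, several for 396 and none for 1193; the brightest probe set stood for its gene.

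Means of 10 groups were fitted with limma 3.58.1 in R 4.3.3 (14 residual degrees of freedom). Contrasts were the average background difference over populations, the difference in each, and a moderated F test of their inequality; all are two-sided or F tests with Benjamini-Hochberg adjustment over 12422 probe sets, and "called" means an adjusted p under 0.05. Named genes were the 15 largest rises and 15 largest falls called with 1 sign in all populations, up to 10 unequal genes, and called list members with up to 4 others per list (29 lists). Members and lists were chosen with earlier results of these data known. The fit was tested on simulated data. Alternatives are in the closing section; the fits without liver-positive arrays, without either T cell population or with albumin as a covariate were added after seeing the data.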

Additional observations from a re-analysis of the deposited data

Results flagged for a closer look

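6 probe sets had background differences that differed between populations by the moderated F test over the 5 differences in limma. The adjusted p was 0.00168 for Cd72 (5.60 in spleen, 2.71 in infiltrates, -0.08 in pancreatic T cells). It was 0.0122 for Trgv1 (2.36 in infiltrates, -0.72 in spleen) and 0.0122 for Ifi209 (1.94 in spleen, -0.11 in infiltrates). It was 0.0335 for Klrb1a (3.27 in NK cells, -0.24 in pancreatic T cells), 0.0335 for Ifi202b (-1.69 in infiltrates, -0.06 in lymph node T cells) and 0.0335 for the Igkv14-111 probe set (1.36 in spleen, -0.07 in infiltrates).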

How the results depend on the processing

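In limma fits with other settings, the averaged difference of all 145 probe sets kept its sign wherever they were tested. The count was 160 with quantile normalization, 149 after centring, 120 without the 40% dimmest probe sets, 137 with a trended robust prior, 143 in the additive model and 173 with albumin as a covariate. It was 269 with array weights, 340 with runs of serial codes as a block (121 of the 145 among them), 72 without the infiltrates, 91 without spleen, 86 without lymph node T cells, 92 without the liver-positive arrays, 75 at an adjusted p under 0.01 and 35 when at least 2-fold was asked. The cause of these shifts was not tested, though fewer arrays or stricter thresholds entered the last 6. The serial code fit also had fewer arrays. NOD lymph node T cell array 2 and B6g7 NK array 2 had no code and were left out, which left a single B6g7 NK array. The share higher in B6g7 was 67.6% (exact 95% interval 59.3% to 75.1%), 57.2% with array weights and 78.3% without the liver-positive arrays.

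The replicate block gave 204 averaged calls, 143 of them shared with the 145, and moved the unequal probe sets to 10, pancreatic T cells to 29 and lymph node T cells to 34. Same-numbered arrays of the 2 backgrounds correlated between -0.037 and 0.649 in their deviations. Of the 11 values 2 were not above 0.1, and the others were 0.218 or higher. In spleen (0.463) and NK cells (0.649), with 2 arrays a background, both numbers must give the same value, so the 11 are not separate. The numbers were not taken as pairing, and whether same-numbered arrays shared handling was not tested.

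Unequal probe sets numbered 1 without the dimmest probe sets, 15 with array weights, 22 with the serial code block, 2 without the infiltrates, 0 without spleen, 2 without lymph node T cells and 1 without the liver-positive arrays. With array weights infiltrates gave 302 calls, spleen 66, NK cells 67 and pancreatic T cells 0. With the serial code block these were 94, 23, 20 and 314, and lymph node T cells gave 143. Without the dimmest probe sets spleen gave 2 and NK cells 1, and with 1 probe set per gene spleen gave 5, NK cells 3 and lymph node T cells 10.

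The reading of the T cell populations with a call that used neither was added after seeing the data. Leaving out 1 array at a time, the averaged count ran from 94 to 181, the share higher from 58.6% to 73.9% (lowest without NOD pancreatic T cell array 2), unequal probe sets from 2 to 11, infiltrates from 16 to 45, spleen from 6 to 14, NK cells from 3 to 13, pancreatic T cells from 3 to 119 and lymph node T cells from 1 to 24. Where this left a single array in a group, its spread was taken from the other groups. With 2 or 3 arrays a group, their number limits the precision.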
